A study of Arabidopsis thaliana with 24 samples.

Results

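The comparison described here is between leaves of acx1-2 plants and leaves of wild-type plants of Arabidopsis thaliana, both taken 72 h after spraying with the synthetic auxin herbicide 2,4-dichlorophenoxyacetic acid (2,4-D). It rests on 6 of the 24 arrays of the series, the 3 titled ACX at T72 and the 3 titled WT at T72, and all 22746 probe sets that are not Affymetrix controls were tested. The acx1-2 line (ACX) is a SALK insertion line in the gene for acyl-CoA oxidase 1, and it was the only such line in the series. The wild type (WT) and ACX share the Col-0 background, the soil, the 16 h light and 8 h dark cycle and the spray of 23 mM 2,4-D in 1% dimethyl sulfoxide and 1% ethanol. Each array at 72 h stands for an independent pool of leaves from at least 5 plants, and plant age is not given. The other arrays are 3 ACX and 3 WT at 1 h, and 6 ACX and 6 WT labelled 0 h. The labels do not say whether the 0 h leaves had been sprayed with the solvents or when they were taken, so a change against 0 h cannot be told apart from an effect of solvent or of time.

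Acyl-CoA oxidases carry out the first step of beta-oxidation in the peroxisome, where fatty acyl chains are shortened and each turn of the oxidase releases hydrogen peroxide. In Arabidopsis, ACX1 also takes part in making jasmonate, the wound and defence hormone, by shortening the side chain of its precursor, and peroxisomal beta-oxidation can release auxins from inactive precursors with longer chains. In leaves, 2,4-D acts through the auxin receptors, and at herbicide doses it brings on twisting growth, reactive oxygen and senescence. Anthocyanins, the red and purple flavonoid pigments, accumulate in Arabidopsis leaves under high sugar, strong light and other stresses.

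The largest differences among named genes lay in anthocyanin synthesis. DFR, the dihydroflavonol reductase that makes the precursors of anthocyanidins, was 31.7-fold higher in ACX than in WT at 72 h, and UF3GT, which adds xylose to anthocyanins, was 8.27-fold higher. The starch synthesis gene APL4, the sugar transporter gene SWEET4, the dehydration protein gene LEA4-5 and the glycosyltransferase genes UGT76E12 and UGT73C1 were also higher in ACX. Lower in ACX were ORA47, a transcription factor that switches on jasmonate synthesis genes, the osmotin gene OSM34, the sucrose exporter gene SWEET11 and HYH, a light-signalling transcription factor. Of these genes, only SWEET11 was called at 0 h in the same test. ORA47 had a difference of −1.02 at 0 h that was not called. For ORA47 and HYH, the genotype difference of the change between 0 h and 72 h was not called. When each of the 6 arrays at 72 h was left out in turn, DFR, UF3GT, APL4, OSM34 and SWEET11 always kept their calls at 72 h. The call was lost in 5 of these 6 fits for UGT76E12, in 4 for SWEET4 and for HYH, in 3 for LEA4-5 and for UGT73C1, and in 1 for ORA47.

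All values are log2 expression per probe set, and a difference of 1 on this scale is 2-fold. Of the 22746 probe sets, 635 (2.79%) passed an adjusted p under 0.05 in limma. It fits a linear model to each probe set and moderates the spread of each by that of all probe sets. Of these, 355 were higher in ACX, 1.56% of those tested, and 280 were lower, 1.23% of those tested. At least 2-fold differences were called for 209 probe sets (0.919%), 124 of them higher in ACX (0.545%) and 85 lower (0.374%). The median difference over all probe sets was −0.003, and the 3 ACX values lay wholly above or below the 3 WT values at 4863 probe sets (21.4%), 580 of them called (2.55%). Groups that do not overlap were a condition for the 30 named genes below, so the gaps given for them describe values and add no support. The fit takes its spread from all 24 arrays, and the calls depend on this. With the 6 arrays at 72 h alone, limma called 2 probe sets, with 3833 at an unadjusted p under 0.05, against 3062 (13.5%) in the fit of all arrays. The number of calls was 209 without WT replicate 1, 262 without ACX replicate 3 and 334 without WT replicate 2.

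**Figure D1:**
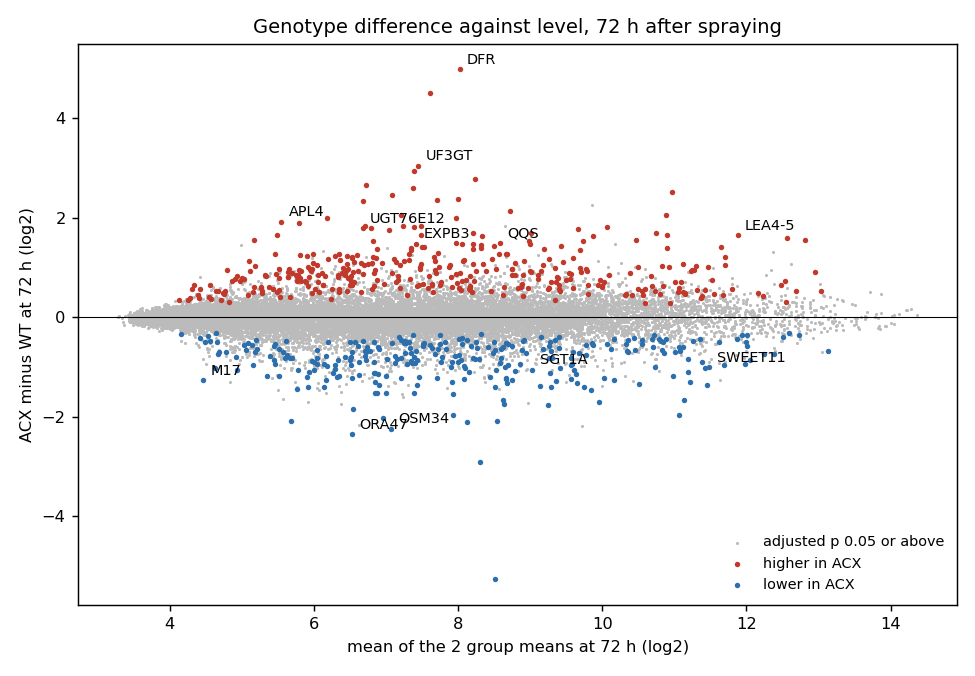
Each point is 1 of 22746 probe sets, with the mean of the ACX and WT group means at 72 h on the x axis and the difference of ACX minus WT on the y axis, both log2. Red points are the 355 probe sets called higher in ACX and blue points the 280 called lower, by limma with an adjusted p under 0.05. DFR stands at 4.99 at the top, the unnamed probe set 245249_at at −5.28 at the bottom, and labels mark 12 named genes.

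The 6 arrays at 72 h did not separate evenly. The Pearson correlation across probe sets was 0.991 to 0.994 among the ACX arrays and 0.988 to 0.991 among the WT arrays. WT replicate 3 correlated with the ACX arrays at 0.990 to 0.991, while WT replicates 1 and 2 correlated with them at 0.977 to 0.986. On the first principal component, which held 50.6% of the variance, the ACX arrays lay at 20.8, 17.2 and 29.1 and the WT arrays at −37.9, −24.1 and −4.95, so that WT replicate 3 lay between the other WT arrays and the ACX arrays. At 426 of the 635 called probe sets (67.1%) it was the WT array nearest to ACX. Without it, 865 probe sets were called, 548 of which were among the 635, and the at least 2-fold calls numbered 363. As a leaf marker, RCA, the activase of the carbon-fixing enzyme Rubisco, was high on every array at 72 h. It read 14.37, 14.41 and 14.40 in ACX and 14.35, 14.34 and 14.38 in WT. Of the 5 nuclear photosynthesis genes measured, RCA among them, 4 had negative differences, and the Calvin cycle gene SBPASE was called lower in ACX. Of all probe sets, 49.1% had positive differences and 1.23% were called lower. In leaf tissue, fewer cells of a type and less RNA per cell cannot be told apart.

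**Figure D2:**
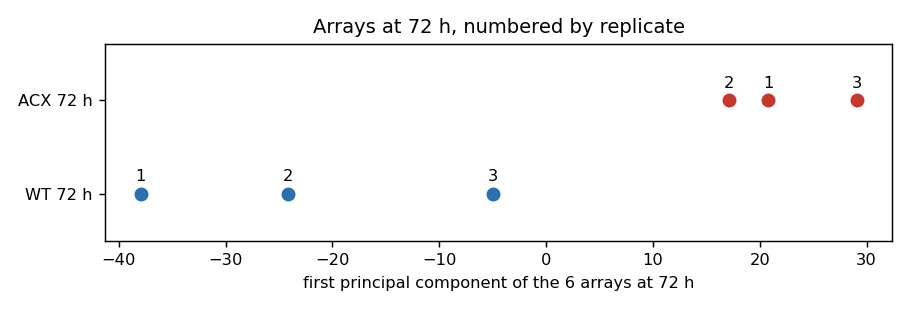
The x axis is the first principal component of the 6 arrays at 72 h, in arbitrary units, with ACX arrays in the upper row and WT arrays in the lower row, numbered by replicate. The ACX arrays sit between 17.2 and 29.1, and WT replicate 3, at −4.95, is the WT array nearest to them.

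No tested probe set is annotated to ACX1 in the annotation used, which leaves 8730 tested probe sets unlisted. Whether any of the unlisted probe sets reads the targeted gene could not be told, so ACX1 could not be read by name. The values of 3 probe sets separated ACX from WT on all 24 arrays, at every time. The probe set 245249_at, which carries no gene name in the annotation used, read 5.85, 5.91 and 5.85 in ACX at 72 h, against 10.94, 11.24 and 11.25 in WT. Its difference was −5.28 (SE 0.156, limma adjusted p = 1.31e-15), and the same probe set differed by −4.41 at 0 h and −5.08 at 1 h. The unnamed probe set 249898_at read 6.95, 6.59 and 6.98 in ACX and 9.83, 9.73 and 9.72 in WT at 72 h, a difference of −2.92 (SE 0.258, limma adjusted p = 1.44e-06). These are the 2 probe sets that limma also called from the 6 arrays at 72 h alone.

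QQS is the third of these. It is an orphan gene known from Arabidopsis for its effect on how leaves divide carbon between starch and protein. At 72 h it read 9.55, 9.23 and 9.22 in ACX, against 8.40, 7.88 and 7.25 in WT, and the lowest ACX array lay above the highest WT array. The difference was 1.49 (SE 0.237, limma adjusted p = 0.00115), close to the 1.51 at 0 h and 1.86 at 1 h. The genotype difference of its change between 0 h and 72 h was −0.02 (limma adjusted p = 0.987).

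The anthocyanin genes were the group with the widest gap. DFR read 11.36, 9.62 and 10.56 in ACX at 72 h, against 4.65, 5.09 and 6.84 in WT. Every ACX array was high, WT replicates 1 and 2 were near the 0 h level, WT replicate 3 was above them, and the groups did not overlap. The difference was 4.99 (SE 0.663, limma adjusted p = 0.000193). At 0 h the means were 5.12 ± 0.60 in ACX and 5.61 ± 1.24 in WT (SD, n = 6 each), so DFR was 5.39 higher at 72 h than at 0 h in ACX (limma adjusted p = 5.12e-08) and differed by −0.08 in WT (limma adjusted p = 0.917). UF3GT read 9.46, 7.82 and 9.63 in ACX and 5.29, 5.93 and 6.54 in WT. As for DFR, ACX replicate 2 was the lowest ACX array and WT replicate 3 the highest WT array, with a gap between the groups. The difference was 3.05 (SE 0.339, limma adjusted p = 1.96e-05). AT5MAT, which adds a malonyl group to anthocyanins, read 6.22, 5.06 and 5.81 in ACX, against 4.43, 4.65 and 4.91 in WT. The groups were apart, narrowly between ACX replicate 2 and WT replicate 3, and the difference was 1.03 (SE 0.189, limma adjusted p = 0.00400). The locus AT4G14090, a member of the anthocyanin and flavonoid list that has no symbol in the annotation used, read 9.90, 7.72 and 8.95 in ACX, against 5.47, 5.55 and 6.72 in WT. Here too ACX replicate 2 was the lowest ACX array and WT replicate 3 the highest WT array, with a gap between the groups and a difference of 2.95 (SE 0.349, limma adjusted p = 4.76e-05). The calls of DFR, UF3GT, AT5MAT and AT4G14090 were kept without each of the 6 arrays at 72 h in turn.

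HYH, a close relative of the light-signalling factor HY5, went the other way. It read 6.74, 6.27 and 5.93 in ACX and 7.78, 7.62 and 6.96 in WT, with all ACX arrays below all WT arrays. The difference was −1.14 (SE 0.306, limma adjusted p = 0.0473), and the call was lost without ACX replicate 2 or 3 or WT replicate 1 or 2, with limma adjusted p between 0.113 and 0.236. At 0 h HYH averaged 8.03 ± 0.17 in ACX and 8.40 ± 0.62 in WT (SD, n = 6 each). BAN, which works beside DFR in making the colourless tannins of the seed coat, differed by 0.20 (limma adjusted p = 0.678). Of the 6 anthocyanin genes matched to a probe set, 4 were thus higher in ACX, 1 was lower and 1 did not pass. The group was picked by symbol, except that AT4G14090 was added to it from the anthocyanin and flavonoid list. Of the 15 genes on that list, only 4 were matched to a probe set, so most of the pathway was not read. Of all probe sets, 1.56% were higher and 1.23% lower. The median difference of the 6 was 1.99, against −0.003 for all probe sets.

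**Figure D3:**
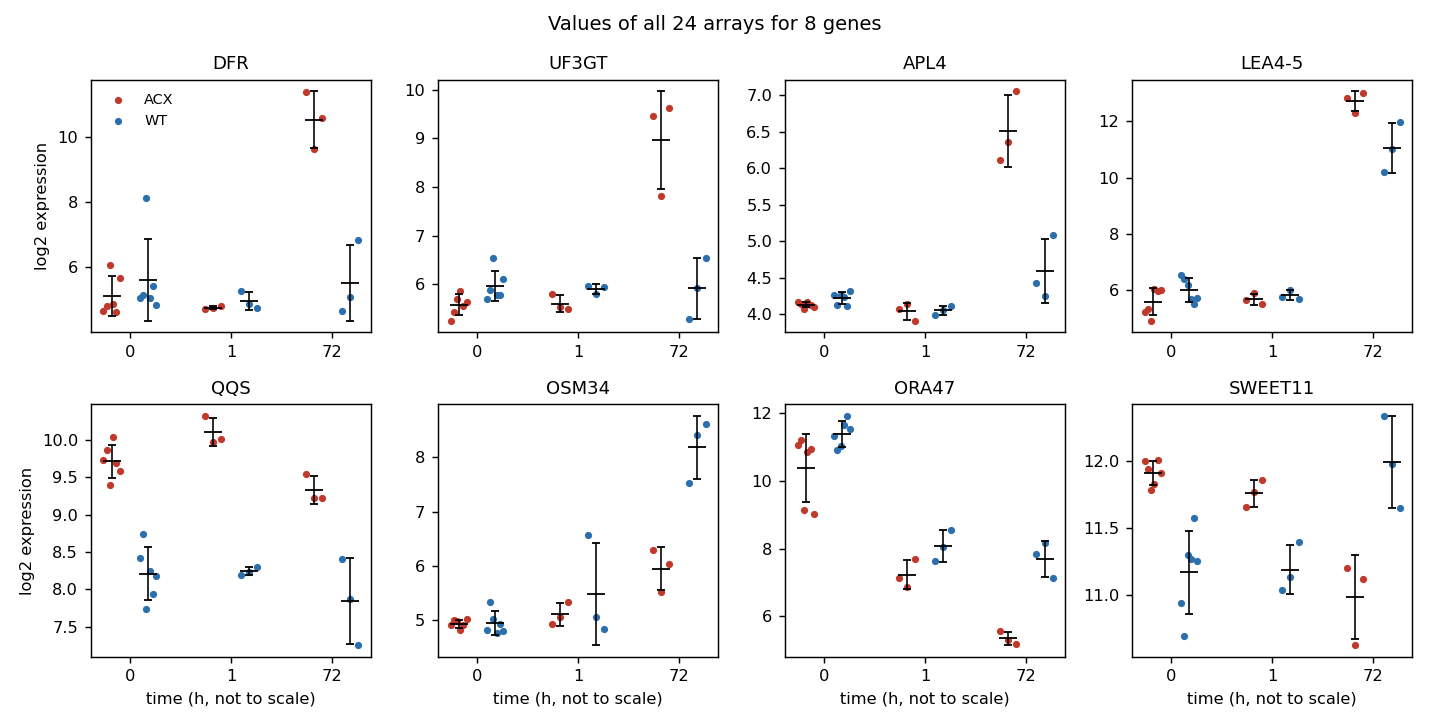
Log2 expression of 8 genes on all 24 arrays, 1 panel a gene, with time in hours on the x axis (not to scale) and ACX arrays in red left of WT arrays in blue. Points are arrays and bars are means with SD (n = 6 each at 0 h, 3 each at 1 h and 72 h). DFR, UF3GT and APL4 stand apart in ACX at 72 h and are close in both genotypes at 1 h, QQS is higher in ACX at every time, and OSM34, ORA47 and SWEET11 are lower in ACX at 72 h.

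Genes of starch synthesis and sugar movement also differed. APL4, a large subunit of ADP-glucose pyrophosphorylase, which makes the glucose donor for starch, read 6.11, 6.35 and 7.05 in ACX and 4.43, 4.25 and 5.08 in WT. The groups were more than 1 log2 unit apart, although WT replicate 2 lay under its array's lower quartile, where RMA compresses differences. The difference was 1.92 (SE 0.179, limma adjusted p = 2.99e-06). At 0 h the 12 arrays of both genotypes read near 4.1 to 4.3, each under its lower quartile, and the genotypes differed there by −0.09 (limma adjusted p = 0.799). APL3, another large subunit, read 9.53, 9.42 and 9.56 in ACX, against 8.48, 8.39 and 9.23 in WT, and its difference of 0.80 did not pass (limma adjusted p = 0.181). With QQS, 2 of the 3 starch genes measured were higher in ACX, where 1.56% of all probe sets were higher. QQS was also higher in ACX at 0 h, by 1.51.

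The SWEET genes encode sugar carriers that let sugars pass membranes along their gradient. SWEET4 read 8.44, 7.91 and 8.59 in ACX and 6.29, 6.34 and 7.34 in WT, with all ACX arrays above WT. The difference was 1.66 (SE 0.390, limma adjusted p = 0.0226), and the call was lost without ACX replicate 1 or 3 or WT replicate 1 or 2, with limma adjusted p between 0.0722 and 0.140. SWEET11, which exports sucrose towards the phloem in leaves, read 11.20, 10.62 and 11.12 in ACX, against 12.34, 11.98 and 11.65 in WT. All ACX arrays were below WT, and the difference was −1.01 (SE 0.188, limma adjusted p = 0.00471). At 0 h SWEET11 stood the other way round: it averaged 11.91 ± 0.09 in ACX and 11.17 ± 0.31 in WT (SD, n = 6 each), a difference of 0.74 (limma adjusted p = 0.00169). Its level was 0.93 lower at 72 h than at 0 h in ACX and 0.82 higher in WT. SWEET9, a nectary carrier in Arabidopsis, differed by 0.50 (limma adjusted p = 0.0461), with overlapping groups. Without ACX replicate 3 that difference was 0.30, and the call was lost without any 1 array other than ACX replicate 1, with limma adjusted p between 0.0614 and 0.289. Of the 15 genes of the SWEET family, 2 were higher in ACX, 1 was lower and 12 did not pass, where 1.56% of all probe sets were higher and 1.23% lower. TMT2, which loads hexoses into the vacuole, was higher by 0.85 (SE 0.213, limma adjusted p = 0.0316), a call lost without ACX replicate 1 or 3 or WT replicate 1 or 2 (limma adjusted p between 0.102 and 0.167).

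Most genes of dehydration and cold had positive differences, and few of them were called. LEA4-5, a late embryogenesis abundant protein made in water deficit, read 12.83, 12.30 and 12.99 in ACX and 10.20, 11.01 and 11.96 in WT. The lowest ACX array lay just above WT replicate 3, and the difference was 1.65 (SE 0.358, limma adjusted p = 0.0137). Both genotypes were far above 0 h, by 7.11 in ACX and 5.04 in WT. The call was lost without ACX replicate 3 or WT replicate 1 or 2, with limma adjusted p between 0.0509 and 0.122. LEA18 was higher by 1.50 (SE 0.345, limma adjusted p = 0.0198), although ACX replicate 2, at 7.95, fell below WT replicate 3, at 8.20. Without WT replicate 1 the LEA18 difference was 0.93, and its call was lost without that array or without ACX replicate 1 or 3 (limma adjusted p between 0.0559 and 0.151). The dehydrin gene LTI30 read 11.19, 10.08 and 11.48 in ACX, against 8.58, 10.14 and 9.58 in WT, and its difference of 1.48 did not pass (limma adjusted p = 0.194).

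Of 7 measured genes of cold and dehydration protection, LEA4-5 alone passed, the differences of all 7 were positive and their median was 0.60, against 49.1% positive and a median of −0.003 for all probe sets. In the wider family of 11 late embryogenesis and cold-regulated genes, 2 were higher in ACX and 1 lower, against 1.56% and 1.23% of all probe sets. The differences of 10 of the 11 were positive, with a median of 0.37 for the family. The lower one, COR27, which links cold to the clock in Arabidopsis, read 4.92, 4.42 and 4.70 in ACX and 6.07, 5.70 and 5.13 in WT, with no overlap. Its difference was −0.95 (SE 0.164, limma adjusted p = 0.00230). COR15A and COR15B, which protect chloroplast membranes in the cold, did not pass at 72 h, with differences of 0.60 (limma adjusted p = 0.627) and 0.32 (limma adjusted p = 0.824). Both were lower in ACX at 0 h, by 2.27 and 1.45 on the log2 scale (limma adjusted p = 9.85e-05 and 0.000885), and the genotype difference of their change between 0 h and 72 h was 2.87 and 1.77 (limma adjusted p = 0.00186 and 0.0123).

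OSM34 and M17 were lower in ACX. OSM34, an osmotin-like defence and osmotic stress protein, read 6.29, 5.51 and 6.02 in ACX, against 7.52, 8.41 and 8.63 in WT. The highest ACX array was more than 1 log2 unit below the lowest WT array, and the difference was −2.24 (SE 0.319, limma adjusted p = 0.000336). From a shared 0 h level of 4.93, OSM34 was 1.01 higher at 72 h in ACX and 3.25 higher in WT. M17, named as a late embryogenesis abundant protein, read 3.80, 3.95 and 3.72 in ACX and 4.45, 5.23 and 5.61 in WT. The ACX values were below the lower quartile of all probe sets, which was 4.42 to 4.46 on the ACX arrays at 72 h, so that the difference of −1.27 (SE 0.175, limma adjusted p = 0.000254) lies in a range that RMA compresses. The calls of OSM34, M17 and COR27 were kept without each of the 6 arrays in turn.

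Genes of detoxification were partly higher in ACX. UGT76E12, a glycosyltransferase that joins sugars to small molecules, read 7.59, 6.68 and 8.45 in ACX and 5.16, 6.19 and 6.01 in WT. The groups were apart, and the difference was 1.79 (SE 0.476, limma adjusted p = 0.0464). UGT73C1, of a cluster that can glycosylate foreign compounds, read 7.22, 5.88 and 6.78 in ACX, against 4.88, 5.47 and 5.68 in WT, with ACX replicate 2 just above WT replicate 3. Its difference was 1.28 (SE 0.291, limma adjusted p = 0.0184). AER, an alkenal reductase that removes products of lipid peroxidation, read 10.19, 9.41 and 9.53 in ACX and 8.85, 9.22 and 8.96 in WT, a difference of 0.70 (SE 0.167, limma adjusted p = 0.0241) with no overlap. These 3 calls were not stable when 1 array was left out. That of UGT76E12 was lost without any 1 array other than ACX replicate 2 (limma adjusted p between 0.0555 and 0.263). That of UGT73C1 was lost without ACX replicate 1 or 3 or WT replicate 1 (limma adjusted p between 0.0926 and 0.144). That of AER was lost without ACX replicate 1 or WT replicate 1 or 3 (limma adjusted p between 0.0513 and 0.145), and its difference was 0.46 without ACX replicate 1.

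With UF3GT, 3 of the 49 glycosyltransferase genes of the UGT family were higher in ACX and none was lower, and the family's median difference was 0.08. The family was picked by symbol and leaves out AT4G14090, which the anthocyanin and flavonoid list names UGT75C1. Of 7 detoxification genes measured, 2 were higher in ACX. Over all probe sets 1.56% were higher and 1.23% lower. The glutathione transferase gene GSTU25 read 7.20, 5.33 and 4.59 in ACX, against 4.34, 4.39 and 4.05 in WT, so that ACX replicate 1 carried most of its difference of 1.45, which did not pass (limma adjusted p = 0.205). UGT73B4, a pathogen-induced glycosyltransferase gene, differed by 1.04 and did not pass (limma adjusted p = 0.170). MSRB3, a methionine sulfoxide reductase that repairs oxidised protein, was higher by 0.73 (SE 0.199, limma adjusted p = 0.0490). Its call was kept only without WT replicate 3, and without the other arrays limma adjusted p was between 0.0502 and 0.186. MSRB6 and MSRB9 had differences of −0.96 and −1.20 and did not pass (limma adjusted p = 0.0967 and 0.283).

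Hormone genes differed at a few points. ORA47 read 5.57, 5.29 and 5.18 in ACX and 7.84, 8.15 and 7.12 in WT. The ACX arrays were all low and the groups were well apart, with a difference of −2.36 (SE 0.479, limma adjusted p = 0.00838). The call was lost without WT replicate 2 (limma adjusted p = 0.0509). ORA47 was high at 0 h, with means of 10.37 ± 1.01 in ACX and 11.39 ± 0.38 in WT (SD, n = 6 each), and was lower at 72 h than at 0 h in both genotypes, by 5.02 in ACX and 3.69 in WT. The genotype difference of that change was −1.34 and did not pass (limma adjusted p = 0.216). Of 6 jasmonate genes measured, ORA47 alone was called, the differences of 5 were negative and the median of the 6 was −0.33. Of all probe sets, 1.23% were called lower, 49.1% had positive differences and the median was −0.003. OPCL1, the ligase that readies the jasmonate precursor for beta-oxidation in the peroxisome, read 8.27, 8.10 and 7.66 in ACX, against 8.76, 8.32 and 8.39 in WT, and its difference of −0.48 did not pass (limma adjusted p = 0.380). The defence genes THI2.2 and PDF1.2 differed by −0.61 (limma adjusted p = 0.366) and −0.05 (limma adjusted p = 0.994).

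Gibberellin signalling gave 2 calls among 5 genes, both lower in ACX, where 1.23% of all probe sets were lower. The group was put together after its values had been seen. The differences of 3 of the 5 genes were positive, and the median was 0.10. GID1A, a gibberellin receptor gene, read 6.98, 6.83 and 7.13 in ACX and 7.94, 7.71 and 7.70 in WT, a clear gap. Its difference was −0.80 (SE 0.204, limma adjusted p = 0.0368), while those of its relatives GID1B and GID1C, looked up after that call was seen, were 0.31 and 0.10 and did not pass (limma adjusted p = 0.929 and 0.926). The GID1A call was kept only without WT replicate 3, and without the other arrays limma adjusted p was between 0.0764 and 0.179. SLY2, an F-box protein that acts on the growth-restraining DELLA proteins, was lower by 0.37 on the log2 scale, with a difference of −0.37 (SE 0.0998, limma adjusted p = 0.0464), a call lost without any 1 of the 6 arrays (limma adjusted p between 0.0929 and 0.150). Its 3 ACX values lay under the lower quartile of their arrays. PSY1R, the receptor-like kinase linked to the growth peptide PSY1, read 6.24, 5.97 and 6.15 in ACX, against 7.13, 6.98 and 6.65 in WT, with no overlap. The difference of −0.80 (SE 0.180, limma adjusted p = 0.0175) lost its call without ACX replicate 2 or 3 or WT replicate 1 or 2 (limma adjusted p between 0.0627 and 0.123). BRL1, a brassinosteroid receptor of vascular tissue, was higher by 0.58 (SE 0.0944, limma adjusted p = 0.00133).

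None of 7 early auxin response genes passed, and the differences of all 7 were positive, with a median of 0.41. With 2.79% of all probe sets called, no call in a group of this size is near the background. Of all probe sets, 49.1% had positive differences, and the median was −0.003. GH3.3, which joins auxin to amino acids, read 14.03, 14.14 and 13.72 in ACX, against 12.94, 13.74 and 13.67 in WT. GH3.1, of the same family, read 8.04, 9.20 and 8.26 in ACX and 7.88, 7.59 and 8.03 in WT, and its difference of 0.67 did not pass (limma adjusted p = 0.181). Both genes had WT arrays close to ACX. Outside that list, IAA20, an Aux/IAA repressor gene, was higher by 0.45 (SE 0.101, limma adjusted p = 0.0174), a call lost without ACX replicate 1 or 2 or WT replicate 1 or 3 (limma adjusted p between 0.0585 and 0.102).

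Of 17 listed genes of peroxisomal beta-oxidation and the glyoxylate cycle, only 2 were matched to a probe set through the annotation used. AIM1, a multifunctional enzyme that follows the oxidase in the cycle, read 10.58, 10.51 and 10.78 in ACX and 10.29, 10.51 and 10.54 in WT, a difference of 0.18 (SE 0.114, limma adjusted p = 0.590). ICL, the isocitrate lyase of the glyoxylate cycle, differed by 0.21 (SE 0.115, limma adjusted p = 0.488). Both differences were under 2 standard errors, and 3 arrays a group leave differences of this size undecided.

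Of 7 probe sets for succinate dehydrogenase and cytochrome c, 3 were higher in ACX and none lower, against 1.56% and 1.23% of all probe sets. This group was put together after its values had been seen. SDH1-1, the flavoprotein subunit of succinate dehydrogenase, read 11.22, 10.50 and 11.28 in ACX and 9.61, 10.19 and 10.20 in WT, with no overlap and a difference of 1.00 (SE 0.184, limma adjusted p = 0.00405). Its iron-sulfur partner SDH2-1 was higher by 0.62 on the probe set 257713_at (SE 0.159, limma adjusted p = 0.0368), while the other SDH2-1 probe set, 257742_at, read 4.04, 4.05 and 4.05 in ACX and 3.93, 4.09 and 3.95 in WT. CYTC-1, a cytochrome c gene, read 11.82, 11.68 and 11.61 in ACX, against 10.82, 11.41 and 11.25 in WT, a difference of 0.55 (SE 0.115, limma adjusted p = 0.0104) with no overlap. SDH1-1 kept its call without each array in turn. The call of SDH2-1 was lost without ACX replicate 1 or 3 or WT replicate 1 or 2 (limma adjusted p between 0.0805 and 0.205), and that of CYTC-1 without ACX replicate 1 or WT replicate 1 (limma adjusted p = 0.0532 and 0.0850). SDH1-2, SDH2-2 and CYTC-2 had differences of 0.13, 0.08 and 0.45 and did not pass. The soluble enzyme cICDH, which makes NADPH from isocitrate in the cytosol, was lower in ACX, with a difference of −0.50 (SE 0.117, limma adjusted p = 0.0232), a call lost without ACX replicate 1 or WT replicate 1 or 2 (limma adjusted p between 0.0838 and 0.166).

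Photosynthesis gave 2 calls, both lower in ACX. SBPASE, sedoheptulose-bisphosphatase of the Calvin cycle, read 11.75, 11.87 and 11.66 in ACX and 12.26, 12.16 and 11.96 in WT, with no overlap. Its difference was −0.37 (SE 0.0912, limma adjusted p = 0.0325), and the call was lost without ACX replicate 1 or 3 or WT replicate 1 or 2 (limma adjusted p between 0.0852 and 0.205). It was also lost when each array was centred on its median, where its difference was −0.34 (limma adjusted p = 0.0909), and when the lowest 50% of probe sets were left out (limma adjusted p = 0.0512). LIL3:2, a light-harvesting-like protein needed for chlorophyll synthesis, read 10.58, 10.39 and 10.44 in ACX, against 10.91, 10.97 and 10.86 in WT, a difference of −0.44 (SE 0.0831, limma adjusted p = 0.00472) that kept its call without each array. These were the 2 calls among 19 nuclear genes of the photosystems and carbon fixation, where 1.23% of all probe sets were lower. The differences of 3 of the 19 were positive, against 49.1% of all probe sets, and 16 were negative, with a median of −0.18 and a range from −0.49 to 0.08. None of 69 probe sets of the plastid genome was called, and their median was −0.06.

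ASPGB1, AtS40-3 and BETA-VPE were higher in ACX. ASPGB1, an asparaginase that frees ammonia from asparagine, read 8.88, 7.68 and 8.05 in ACX and 6.58, 6.93 and 6.86 in WT, with a difference of 1.41 (SE 0.213, limma adjusted p = 0.000757) and no overlap. AtS40-3, of a family of senescence regulators, read 6.82, 6.04 and 6.43 in ACX, against 5.23, 4.63 and 5.65 in WT, a difference of 1.26 (SE 0.245, limma adjusted p = 0.00630). All ACX arrays of both genes lay above WT, and both calls were kept without each array. BETA-VPE, a vacuolar processing protease, read 9.66, 9.37 and 9.82 in ACX and 8.04, 8.67 and 9.35 in WT, with ACX replicate 2 barely above WT replicate 3 and a difference of 0.93 (SE 0.223, limma adjusted p = 0.0249). Without WT replicate 1 it was 0.61, and the call was lost without that array, WT replicate 2 or ACX replicate 1 or 3 (limma adjusted p between 0.0735 and 0.193). It was the single call among 4 vacuolar processing enzyme genes, where 1.56% of all probe sets were higher. At 0 h BETA-VPE was lower in ACX, with a difference of −0.97 (limma adjusted p = 0.000867).

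None of 4 measured genes of leaf senescence passed. SAG29, a senescence-associated sugar carrier, read 11.12, 11.97 and 12.48 in ACX and 9.54, 11.35 and 12.42 in WT, wide in both groups and overlapping. SAG101 and WRKY53, regulators of senescence and defence, differed by −0.43 (limma adjusted p = 0.663) and −0.34 (limma adjusted p = 0.892). The 7 autophagy genes measured had differences between 0.003 and 0.56, and none passed. As 2.79% of all probe sets were called, no call in groups of these sizes is near the background.

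BHLH101, CCS, APS3 and GME were lower in ACX. BHLH101, a transcription factor of the iron deficiency response, read 6.53, 5.81 and 6.20 in ACX and 7.21, 6.96 and 7.05 in WT, a difference of −0.89 (SE 0.187, limma adjusted p = 0.0104). CCS, the chaperone that gives copper to superoxide dismutase, read 7.19, 7.57 and 7.18 in ACX, against 8.44, 8.36 and 7.81 in WT, a difference of −0.89 (SE 0.240, limma adjusted p = 0.0480). All ACX arrays of both genes were below all WT arrays. CCS was also lower in ACX at 0 h, with a difference of −0.997 (limma adjusted p = 0.00122). APS3, an ATP sulfurylase that activates sulfate, read 8.41, 8.20 and 8.34 in ACX and 8.92, 8.83 and 9.0 in WT, a small and even gap of −0.60 (SE 0.146, limma adjusted p = 0.0268). At 0 h APS3 was higher in ACX by 0.97 (limma adjusted p = 2.21e-05), with means of 10.72 ± 0.15 in ACX and 9.75 ± 0.26 in WT (SD, n = 6 each). GME, an epimerase on the way to ascorbate, read 10.83, 10.93 and 10.71 in ACX, against 11.60, 11.49 and 11.16 in WT, a difference of −0.59 (SE 0.101, limma adjusted p = 0.00225).

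GME kept its call without each array. The call of BHLH101 was lost without ACX replicate 2 or WT replicate 1 (limma adjusted p = 0.0584 and 0.0717). That of CCS was lost without ACX replicate 1 or 3 or WT replicate 1 or 2 (limma adjusted p between 0.138 and 0.235), and under median centring of the arrays (limma adjusted p = 0.0547). That of APS3 was lost without any 1 array other than ACX replicate 1 (limma adjusted p between 0.0559 and 0.102). BHLH101 was the single call among 8 iron deficiency genes, of which 7 had negative differences, with a median of −0.21. Of all probe sets, 1.23% were called lower and 49.1% had positive differences.

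The remaining genes of the 30 with the largest called differences belong to no common group. Higher in ACX were EXPB3, a wall-loosening beta-expansin, by 1.48 (SE 0.209, limma adjusted p = 0.000336), TET15, a tetraspanin of the cell surface, by 0.94 (SE 0.159, limma adjusted p = 0.00209), and ZW9 by 1.03 (SE 0.275, limma adjusted p = 0.0470). EXPB3 read 7.68, 8.73 and 8.07 in ACX and 6.72, 6.66 and 6.66 in WT, the WT arrays lying almost on 1 point. The other 17 expansin genes measured did not pass, where 2.79% of all probe sets were called. Lower in ACX were SGT1A, a co-chaperone of immune receptors, by 1.06 on the log2 scale (difference −1.06, SE 0.218, limma adjusted p = 0.00933), AGL42, a MADS-box factor, with −1.02 (SE 0.149, limma adjusted p = 0.000486), and AR781 with −0.83 (SE 0.220, limma adjusted p = 0.0450). SGT1A read 8.41, 8.76 and 8.34 in ACX, against 10.16, 9.24 and 9.28 in WT, with WT replicate 1 well above the rest. AGL42 read 4.1, 4.06 and 4.20 in ACX, values under the lower quartile given above, and 5.03, 5.62 and 4.78 in WT. The groups of each of these genes did not overlap, which was a condition for being among the 30.

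EXPB3, TET15 and AGL42 kept their calls without each array. ZW9 kept its call only without WT replicate 3 (limma adjusted p otherwise between 0.0557 and 0.221). SGT1A lost its call without ACX replicate 3 or WT replicate 1 (limma adjusted p between 0.0616 and 0.0830). AR781 lost its call without ACX replicate 2 or 3 or WT replicate 1 or 2 (limma adjusted p between 0.0581 and 0.282), and its difference was −0.55 without ACX replicate 3. Over the 30 genes, 16 kept their calls without each of the 6 arrays, 10 higher in ACX and 6 lower. None of the 30 was called from the arrays at 72 h alone, where their limma adjusted p was between 0.0575 and 0.155.

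**Figure D4:**
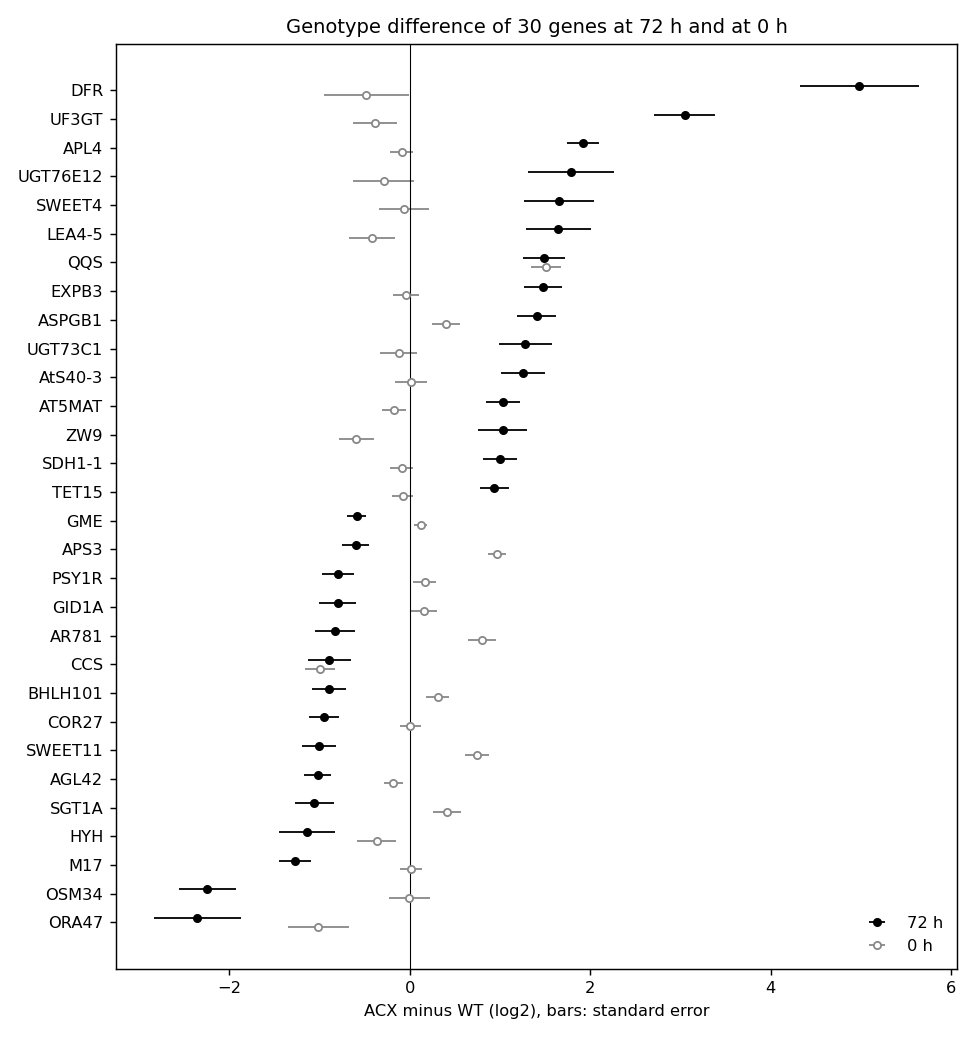
Difference of ACX minus WT (log2, x axis) for the 30 named genes with the largest called differences at 72 h, filled circles, and the same genes at 0 h, open circles, with bars for the standard error of the fit. The 15 genes higher in ACX at 72 h run from TET15 at 0.94 to DFR at 4.99, and QQS and CCS have nearly the same difference at both times.

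Whether the genotypes already differed at 0 h was asked with the arrays at 0 h. They do not enter the means compared at 72 h, but both tests share 1 estimate of spread per probe set. At 0 h limma called 1671 probe sets (7.35%), 787 higher in ACX (3.46%) and 884 lower (3.89%), and at 1 h it called 8 (0.0352%), with 1041 (4.58%) at an unadjusted p under 0.05. Of the 635 probe sets called at 72 h, 97 were also called at 0 h, which is 15.3% of the list at 72 h and 5.80% of the list at 0 h. Of the 355 higher in ACX at 72 h, 5 were higher and 30 lower in ACX at 0 h. Of the 280 lower in ACX at 72 h, 18 were lower and 44 higher in ACX at 0 h. Of the 30 named genes, QQS and CCS differed in the same direction at both times, and SWEET11, AR781 and APS3 were higher in ACX at 0 h and lower at 72 h.

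The change itself was tested as the difference between the genotypes at 72 h minus that at 0 h, which shares the arrays at 72 h with the comparison above. It was called for 1362 probe sets (5.99%), 705 of them more positive in ACX (3.1%) and 657 more negative (2.89%). Of the 30 named genes, 26 were among them, all but QQS, ORA47, HYH and CCS. The 30 were chosen as called at 72 h, and of all 635 probe sets called there, 467 (73.5%) were called for the change. Within the 30, DFR had the largest value, 5.47 (limma adjusted p = 0.000575), followed by UF3GT at 3.43 (limma adjusted p = 7.19e-05), and OSM34, at −2.24 (limma adjusted p = 0.00174), had the most negative. APL4, AtS40-3, AGL42 and M17, 4 of the 30, read under the lower quartile on all 12 arrays at 0 h, a range in which RMA compresses changes.

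Over 25 gene lists of pathways and cell types, 88 genes in 19 lists were matched to a probe set, and no member of the other 6 lists was matched through the annotation used. Of the 88 genes, 8 were higher in ACX and 3 lower, against 1.56% and 1.23% of all probe sets. The lists were chosen with results of these data known, so these counts are a description. The called genes were DFR, UF3GT, AT4G14090, QQS, APL4, LEA4-5, UGT73C1 and AER higher, and HYH, ORA47 and SBPASE lower. Without WT replicate 1, 5 were higher and 1 lower, without ACX replicate 3, 6 and 1, without WT replicate 2, 8 and 0, and without WT replicate 3, 9 and 6. Markers of other leaf cell types were few. The 3 guard cell and stomatal lineage genes all had negative differences with a median of −0.97, and none passed. Of all probe sets, 49.1% had positive differences. STOMAGEN, a peptide from the mesophyll that promotes stomata, read 5.03, 5.09 and 4.61 in ACX, against 5.39, 7.16 and 5.65 in WT. The trichome gene TRY differed by −0.37 (limma adjusted p = 0.837). The part of cell type makeup in the other differences was not tested.

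**Figure D5:**
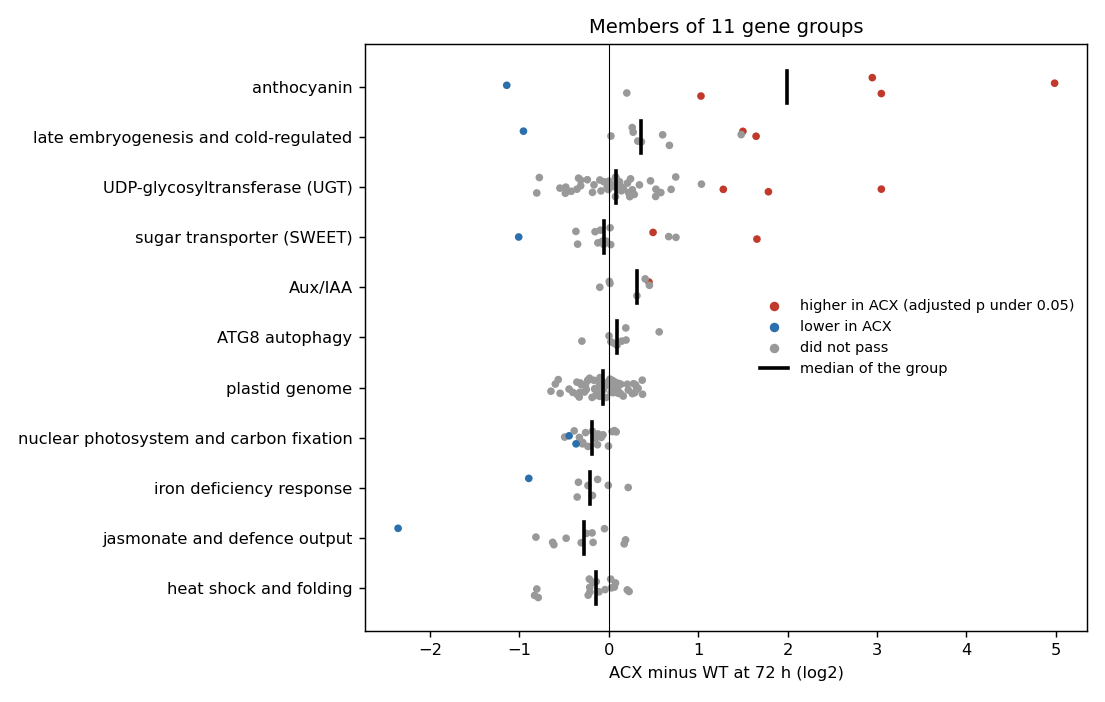
Members of 11 gene groups, 1 point a probe set, with ACX minus WT at 72 h (log2) on the x axis. Red points were called higher in ACX, blue points lower, grey points did not pass, and black bars are group medians. The anthocyanin group has 4 red points and 1 blue, while the 69 plastid genome probe sets lie between −0.65 and 0.38 with none called.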

How the data were processed

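Leaf RNA was hybridised to Affymetrix ATH1 arrays, 1 per pool of leaves. The deposited values are log2 expression, 1 per probe set, from RMA run by the authors; RMA and limma are the tools listed in the submitters' processing notes. Their versions and settings, and whether 1 run of RMA took in every array, are not given in the sources that were used. RMA evens out the distribution between arrays, so a shift in most genes at once would not show, and it compresses changes of low values. The number of arrays limits the precision. Of 22810 probe sets, 64 Affymetrix controls were left out.

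Groups were taken from the labels. Means of 6 groups were fitted over 24 arrays with limma 3.58.1 in R 4.3.3 (18 residual degrees of freedom and 3.23 added by the moderated variance), and p-values were adjusted by Benjamini-Hochberg over 22746 probe sets, with a threshold of 0.05. The fit was tested on simulated data. Genes were named from the 2016 annotation of the platform, in which 13513 of the tested probe sets have 1 gene, of which 13436 matched RefSeq (TAIR10.1) by gene ID. A further 503 have several genes and 8730 are unlisted. Of 635 calls, 60 have a gene symbol, 258 a locus code, 11 several genes and 306 no name. The text names the 15 largest called increases and 15 largest decreases with a symbol and groups that do not overlap, out of 54 such genes, and up to 4 members of each gene list. Other genes were named after their values were seen. The members, the 25 lists, the 34 families and the comparison were chosen with earlier results of these data known. Alternatives changed the centring, normalization, filter, variance model, weights, arrays fitted, replicate block and probe set per gene, and left out each array at 72 h. Promoter sequences were not used here.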

Additional observations from a re-analysis of the deposited data

Results flagged for a closer look

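Here 33 genes were examined, all of them chosen because they were called at 72 h. For 29 of the 33 the genotype difference at 72 h differed from that at 0 h in the test of the difference itself (limma adjusted p under 0.05). Of all 635 probe sets called at 72 h, 467 (73.5%) passed that test, so a high share follows from the choice. The values below are log2 differences of ACX minus WT at 72 h less the same at 0 h. They share the arrays at 72 h with the comparison reported above. Of anthocyanin and sugar genes, DFR had 5.47, UF3GT 3.43, AT4G14090 3.61, AT5MAT 1.21, APL4 2.01, SWEET4 1.72 and SWEET11 −1.75. Of dehydration and osmotic genes, LEA4-5 had 2.07, OSM34 −2.24, M17 −1.28 and COR27 −0.96. Of glycosyltransferase and detoxification genes, UGT76E12 had 2.08, UGT73C1 1.41 and AER 0.80. ASPGB1 had 1.00, AtS40-3 1.25, SDH1-1 1.09, EXPB3 1.52, TET15 1.02 and ZW9 1.62. Of signalling genes, GID1A had −0.96, PSY1R −0.96, SGT1A −1.47, AGL42 −0.84 and AR781 −1.63. BHLH101 had −1.20, APS3 −1.57, GME −0.71 and SBPASE −0.39.

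Of the 29, 20 were called without each of the 6 arrays at 72 h in turn. PSY1R was lost without WT replicate 1. AER and ASPGB1 were lost without ACX replicate 1 or WT replicate 1, and AtS40-3 without ACX replicate 1 or WT replicate 2. UGT73C1 and UGT76E12 were lost without ACX replicate 1 or 3 or WT replicate 1, and GID1A without ACX replicate 1 or 2 or WT replicate 1. SWEET4 and SBPASE were lost without ACX replicate 1 or 3 or WT replicate 1 or 2. SBPASE was also lost under median centring of the arrays and without the lowest 25% or 50% of probe sets, and SBPASE, AER, ASPGB1 and UGT76E12 with the replicate number as a block. Over these losses and those named next, limma adjusted p was at most 0.184. With 0 h replicates 1 to 3 alone 21 of the 29 were called, and with 0 h replicates 4 to 6 alone 23 were.

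Single arrays at 0 h stood far from the other 5 of their group in 7 of 66 pairs of gene and group examined, where chance gives about 1 in 20. Of the 7, 3 lay on WT 0 h replicate 3: DFR at 8.11 against 4.83 to 5.44 on the other WT arrays, HYH at 7.22 against 8.34 to 8.94, and CCS at 8.39 against 8.96 to 9.19. SWEET4 read 6.32 on WT 0 h replicate 5 against 5.47 to 5.78, and GID1A 7.11 on the same array against 6.50 to 6.66. AT5MAT read 5.27 on WT 0 h replicate 2 against 4.75 to 4.94. COR27 read 4.17 on ACX 0 h replicate 1, a value under its lower quartile, against 4.36 to 4.47.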

How the results depend on the processing

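Counts at 72 h stayed within 1.5 times under median centring, quantile normalization, a trended robust variance, 1 probe set per gene and without the lowest 25% of probe sets, and no result changed sign in a call. Without the lowest 50%, 396 were called, 174 of them higher in ACX, 137 were at least 2-fold, and 5 list members were higher. Array weights gave 1357 calls (672 higher and 685 lower), 2444 for the difference of the change (1295 and 1149), 1369 lower at 0 h and 45 at 1 h (25 and 20). At 1 h, 8 were higher without the lowest 25%. With the arrays at 72 h alone, 2 were called, 0 higher and 2 lower, both at least 2-fold, with 0 list members higher and 0 lower. The 0 h replicates 4 to 6 alone gave 2914 for the change (1612 and 1302). Leaving out 1 array at 72 h gave 209 to 865 calls, 130 to 451 higher, 79 to 414 lower, 98 to 363 at least 2-fold, and 5 to 9 list members higher and 0 to 6 lower. For the change it gave 705 to 1625, 367 to 836 and 338 to 789. The cause was not tested.

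The labels do not say whether replicate numbers pair the samples. Deviations of same-numbered ACX and WT arrays at 72 h correlated at 0.12, −0.001 and 0.22, which are too few values to settle it. With the number as a block in the 72 h arrays, 193 were called, 80 higher and 113 lower, 107 at least 2-fold, with 3 list members higher, and DFR, APL4, QQS, SWEET4, ORA47 and HYH of the 30 genes. For the change the block gave 1125 calls.

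Limits: with 3 arrays a group, differences near the median standard error of 0.148 cannot be seen, 306 of the 635 calls have no name, and 0 h is not a stated solvent control.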

Other observations

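Many of the largest differences at 72 h lie at probe sets with no gene symbol, and those given here were chosen after their values were seen. The unnamed probe set 254283_s_at read 10.92, 8.86 and 9.82 in ACX, against 4.81, 5.31 and 5.949 in WT, a difference of 4.51 (SE 0.509, limma adjusted p = 2.31e-05). As in DFR and UF3GT, ACX replicate 2 was the lowest ACX array and WT replicate 3 the highest WT array, with no overlap. The unnamed probe set 250083_at was higher in ACX at 72 h by 2.77 (SE 0.378, limma adjusted p = 0.000231) and lower at 0 h, with a difference of −1.58 (limma adjusted p = 0.00115). AT3G02480 was higher by 2.52 (SE 0.369, limma adjusted p = 0.000486) and AT5G45690 by 2.45 (SE 0.252, limma adjusted p = 8.27e-06). On the lower side, the unnamed probe set 257008_at read 9.77, 10.76 and 9.70 in ACX, against 12.50, 12.31 and 11.33 in WT, a difference of −1.97 (SE 0.242, limma adjusted p = 7.76e-05).

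None of 17 heat shock and folding genes was called at 72 h, and the median difference was −0.14. Hsp70-2, a chaperone, read 9.04, 8.87 and 8.86 in ACX and 10.57, 9.90 and 8.78 in WT, where WT replicate 3 lay below all ACX arrays. None of 19 CYP71B cytochrome P450 genes or 11 tau glutathione transferase genes was called, with medians of −0.02 and 0.04. With 2.79% of all probe sets called, counts of 0 in groups of these sizes are near the background. Of 12 ubiquitin-conjugating enzyme genes, a group put together after values were seen, UBC32 was higher in ACX by 0.70 (SE 0.168, limma adjusted p = 0.0257) and UBC30 by 0.46 (SE 0.0915, limma adjusted p = 0.00765). The call of UBC32, which acts in the disposal of misfolded proteins at the endoplasmic reticulum, was lost without ACX replicate 1 or 3 or WT replicate 1 (limma adjusted p between 0.0847 and 0.188). That of UBC30 was lost without ACX replicate 3 or WT replicate 1 (limma adjusted p between 0.0703 and 0.0732). GPDHC1, a cytosolic glycerol phosphate dehydrogenase, was higher in ACX at 72 h by 0.93 (SE 0.180, limma adjusted p = 0.00620) and lower at 0 h, with a difference of −0.97 (limma adjusted p = 0.000108). Its call at 72 h was lost without ACX replicate 3 (limma adjusted p = 0.0556). ATMPK13, a MAP kinase gene, was higher by 0.85 (SE 0.146, limma adjusted p = 0.00230), and PAP20, a purple acid phosphatase gene, by 0.72 (SE 0.131, limma adjusted p = 0.00379). Both kept their calls without each array at 72 h in turn.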
